A study of Mus musculus with 18 samples.

Results

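The genes described here are 10 cyclic nucleotide phosphodiesterases, Pde1a, Pde1b, Pde1c, Pde2a, Pde4a, Pde4b, Pde4d, Pde7b, Pde8b and Pde9a, chosen by gene name with no threshold on a measured value. They are 10 of 38561 genes counted in the series, and all 10 were among the 17545 genes kept for testing because at least 1 library held 10 counts or more. Of the 10, 9 were found by symbol in the GENCODE M21 annotation of GRCm38, and Pde2a was found by position. RNA sequencing had been performed on the frontal cortex, striatum and hippocampus of adult mice labelled strain C57 Bl6J. The genotypes were WT and PCM1 KO, written Pcm1-/- below, with 3 libraries per genotype in each region and no treatment. The Pcm1-/- mice carried a gene trap in Pcm1, which encodes a centriolar satellite protein, and this allele was present in the germline rather than in a chosen cell type; WT animals were littermates. The 18 libraries came from 6 animals, 3 per genotype, each giving all 3 regions, so libraries of different regions are not independent animals. Each library was made from dissected tissue, in which fewer cells of a type and less RNA per cell cannot be told apart.

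Phosphodiesterases end cyclic nucleotide signalling by hydrolysing cAMP, cGMP or both to the 5'-monophosphates. The Pde1 enzymes are switched on by calcium and calmodulin and accept both nucleotides, Pde2a also accepts both and is stimulated by cGMP, the Pde4, Pde7 and Pde8 enzymes are specific for cAMP, and Pde9a is specific for cGMP. In the striatum, cAMP made downstream of dopamine D1 and adenosine receptors drives protein kinase A in projection neurons, and Pde1b is known for its abundance there. Pde4 enzymes are the targets of rolipram and are held near their substrates by anchoring proteins, among them the scaffold Disc1.

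The libraries held from 24950537 to 33405081 counts on genes. Pcm1 was measured at 119.9, 133 and 149 CPM (counts scaled to a common library size with TMM factors) in WT frontal cortex and at 12.2, 12.2 and 12.2 in Pcm1-/- frontal cortex, at 170.2, 150.3 and 172 against 17.6, 16.5 and 16.0 in the striatum, and at 142, 138 and 145 against 11.8, 13.1 and 12.9 in the hippocampus, so it was lower in all 9 mutant libraries, as their labels give. Summed levels of 8 striatal projection neuron markers were 6983 to 8948 CPM in striatum, 205 to 291 in frontal cortex and 138 to 178 in hippocampus, and those of 6 forebrain excitatory neuron markers were 2618 to 3201, 1895 to 3043 and 14.4 to 87.6 in frontal cortex, hippocampus and striatum. Choroid plexus markers, by contrast, summed to 222 to 6289 CPM across hippocampal libraries and to 5988 in WT striatum replicate 3 against 31.0 to 167 in the other striatal libraries, and pituitary markers summed to 191 CPM in WT frontal cortex replicate 2 against at most 5.75 in the rest of that region. In each genotype 1 animal gave libraries with Y-linked counts, 2988 to 4306 over 4 genes against 0 to 5 elsewhere. These were replicate 2 in frontal cortex and hippocampus of both genotypes and in Pcm1-/- striatum, and replicate 3 in WT striatum. All striatal WT libraries were sequenced in lane 5 and the Pcm1-/- ones in lanes 3 and 4, so that in the striatum genotype and lane cannot be told apart.

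Levels of different genes were compared per kilobase of exon in GENCODE M21, for Pde2a over the 4.139 kb it gives the counted identifier described below. The counts were made with Ensembl release 73, whose exon lengths were not used and may differ. In WT frontal cortex Pde2a led with 103 ± 4.80 CPM per kb (SD, n = 3), followed by Pde1a with 54.4 ± 3.16, Pde1b with 29.2 ± 0.856, Pde4a with 21.5 ± 1.63 and Pde8b with 18.3 ± 1.00. Pde4b stood at 12.3 ± 1.07, Pde4d at 5.37 ± 0.561, Pde7b at 4.03 ± 0.376, Pde9a at 3.06 ± 0.570 and Pde1c, the lowest, at 0.370 ± 0.0753. No neighbours in this order overlapped across the 3 libraries, although Pde4a (lowest library 19.7) and Pde8b (highest library 19.3) nearly met.

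The order was different in WT striatum, where Pde1b led with 279 ± 21.9 CPM per kb (SD, n = 3), above Pde2a with 197 ± 23.9. Pde8b with 30.0 ± 2.61 and Pde7b with 28.3 ± 0.902 overlapped and were not told apart. Below them came Pde4b with 16.9 ± 0.579, Pde4a with 10.4 ± 0.225, Pde1a with 7.93 ± 1.17, Pde9a with 5.10 ± 0.770, Pde4d with 3.72 ± 0.301 and Pde1c with 2.96 ± 0.290. Pde1a, second in the frontal cortex, thus ranked 7 of the 10 in the striatum, and Pde7b moved from rank 8 to rank 4. Pde10a, the phosphodiesterase typical of striatal projection neurons and no member of this group, had 175 ± 10.5 CPM per kb in WT striatum, where its libraries overlapped those of Pde2a, against 5.62 ± 0.275 in frontal cortex and 6.86 ± 0.973 in hippocampus.

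In WT hippocampus Pde2a again led with 72.6 ± 13.0 CPM per kb (SD, n = 3). Pde1a with 31.5 ± 10.9 and Pde1b with 25.3 ± 1.87 overlapped, as did Pde4a with 15.1 ± 1.42 and Pde8b with 14.7 ± 0.928. Pde4b stood apart at 8.63 ± 0.166, then Pde4d with 3.52 ± 0.396, Pde9a with 3.13 ± 0.541 and Pde7b with 2.45 ± 0.298 overlapped from neighbour to neighbour, and Pde1c was lowest at 0.517 ± 0.0686. The summed level of the 10 genes was 252 ± 5.08 CPM per kb in WT frontal cortex, 581 ± 44.2 in WT striatum and 177 ± 25.3 in WT hippocampus. Of that sum the calcium-activated Pde1 genes made up 33.3% ± 1.05 in frontal cortex, 49.9% ± 1.77 in striatum and 32.1% ± 2.73 in hippocampus. The 5 cAMP-specific genes made up 24.4% ± 1.09, 15.4% ± 0.733 and 25.3% ± 3.37 of it in the same order. These per-length values depend on the exon model used for each gene, and another length was tried for Pde2a only. Over the 6.149 kb of all annotated Pde2a exons, a length tried after the data were seen, Pde2a would stand at 69.6 ± 3.23, 132 ± 16.1 and 48.9 ± 8.76 CPM per kb (SD, n = 3) in WT frontal cortex, striatum and hippocampus. It would keep its rank among the 10 genes, but would lie below Pde10a in striatum and overlap Pde1a in hippocampus. The Pde1 genes would then make up 38.5%, 56.1% and 37.0% of a summed level of 218, 516 and 154 CPM per kb, and the cAMP-specific genes 28.2%, 17.3% and 29.2%.

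**Figure D1:**
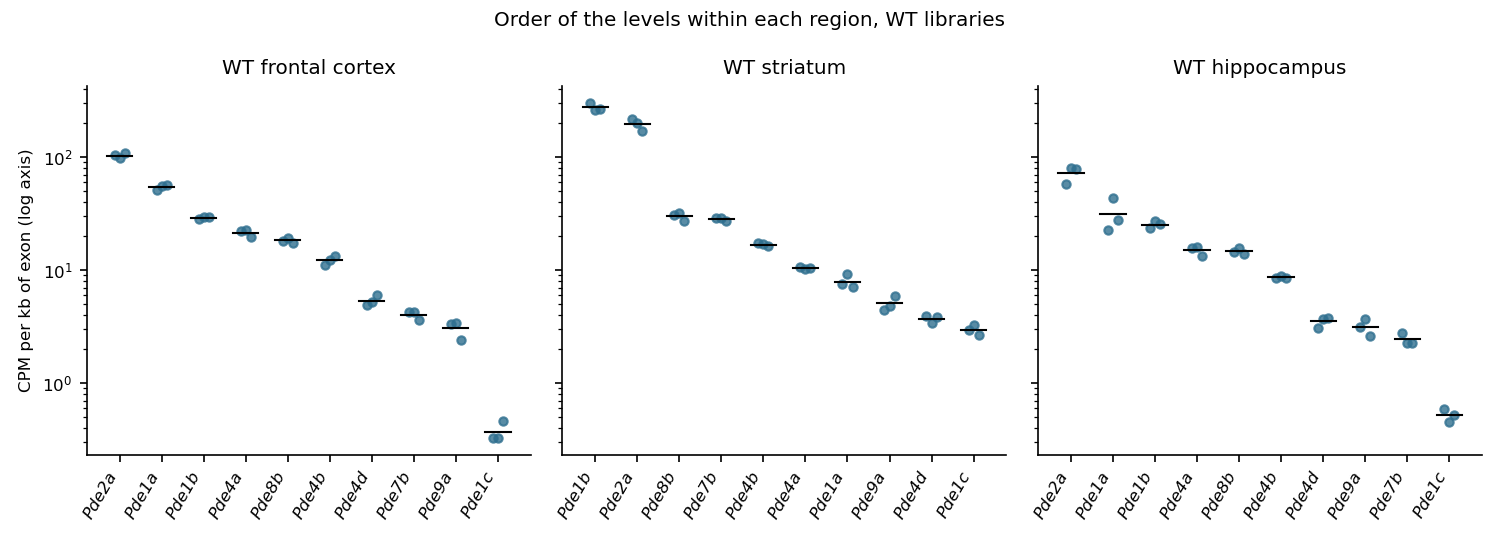
Level of the 10 phosphodiesterase genes in the WT libraries of each region, in CPM per kb of exon on a log axis, sorted by the mean; points are the 3 libraries and bars their mean. Pde2a leads in frontal cortex and hippocampus and Pde1b in striatum at 279 CPM per kb. Pde1c, whose 20.067 kb of exon is the longest of the 10, is lowest per kb in each region.

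The comparison between regions asks where in the forebrain each gene is expressed, and was made within each genotype with edgeR's quasi-likelihood test on its 9 libraries. A gene was called when the p-value adjusted by the Benjamini-Hochberg method was under 0.05 and the difference at least 2-fold. In WT mice 3 members (Pde1b, Pde1c and Pde7b) were called higher in striatum than in frontal cortex, beside 8.33% of all genes tested, and 2 (Pde1a and Pde4a) were called lower, beside 8.29%. Against the hippocampus, 5 members (Pde1b, Pde1c, Pde2a, Pde7b and Pde8b) were higher in WT striatum, beside 5.35% of all genes, and Pde1a alone was lower, beside 6.69%. Between hippocampus and frontal cortex no member was called in WT mice, where 6.62% of all genes were called higher and 4.59% lower in hippocampus. With no minimum fold the adjusted p was under 0.05 for 10 members between striatum and frontal cortex, beside 41.5% of all genes, for 8 between hippocampus and frontal cortex, beside 29.8%, and for 9 between striatum and hippocampus, beside 29.2%.

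In Pcm1-/- mice the same comparisons called 5 members higher in striatum than in frontal cortex (Pde1b, Pde1c, Pde2a, Pde7b and Pde9a, beside 9.14% of all genes) and 2 lower (Pde1a and Pde4a, beside 9.55%). Against the hippocampus 6 were higher in striatum (Pde1b, Pde1c, Pde2a, Pde4b, Pde7b and Pde9a, beside 6.85%) and Pde1a was lower, beside 8.42%. Pde7b was called lower in hippocampus than in frontal cortex, beside 5.67% of all genes, and no member was called higher, beside 6.93%. With no minimum fold the adjusted p was under 0.05 for 6 members in that comparison, beside 41.5% of all genes. A member called in a single genotype is not thereby shown to differ between genotypes, since that is the interaction, tested further below, which no member passed. The median log2 difference of the 10 genes between striatum and frontal cortex was 0.72 in WT and 0.93 in Pcm1-/- mice, against 0.02 over all 17545 genes in both. The median size of the difference regardless of sign was 0.99 and 1.21 on the log2 scale, against 0.37 and 0.39 over all genes.

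**Figure D2:**
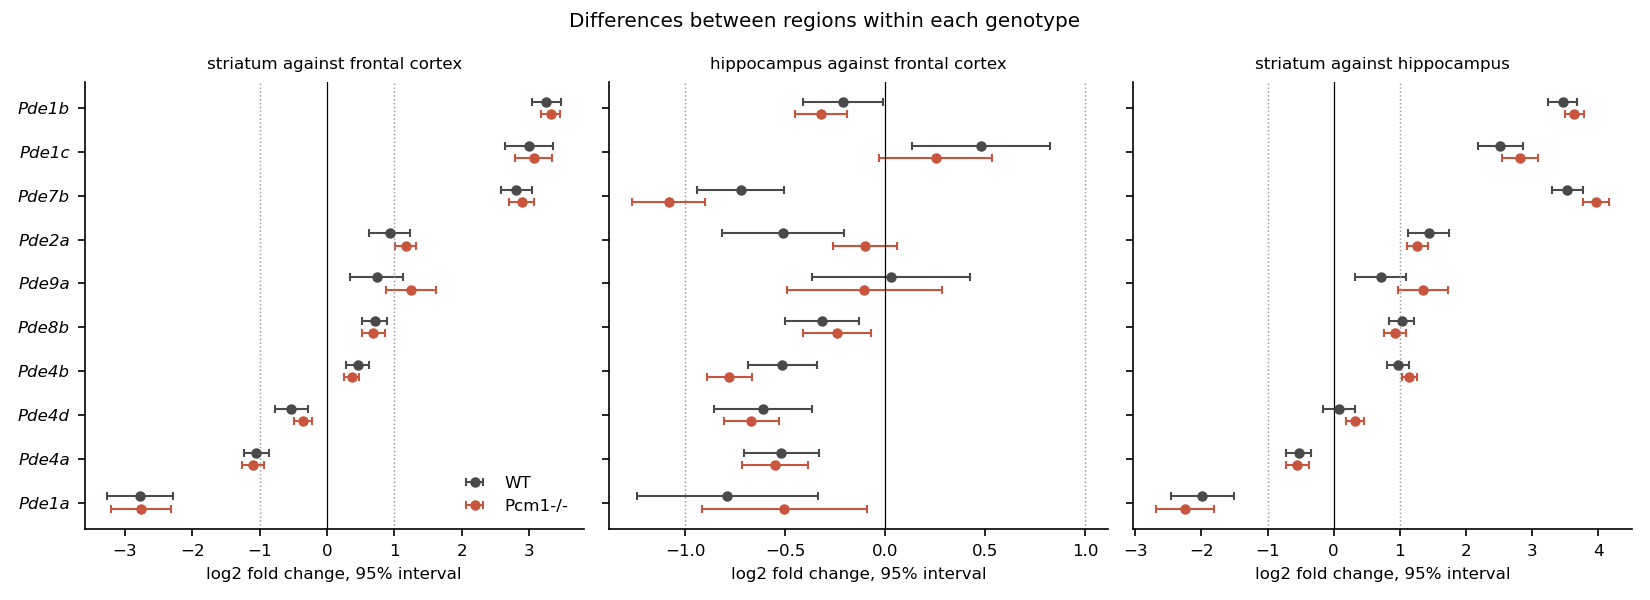
Log2 fold changes between regions for each of the 10 genes, with 95% confidence intervals, from 9 WT libraries (grey) and 9 Pcm1-/- libraries (red); dotted lines mark a 2-fold difference. Pde1b, Pde1c and Pde7b lie furthest to the right where striatum is compared, Pde1a lies furthest to the left, and none of the 10 reaches 2-fold in WT mice between hippocampus and frontal cortex.

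Pde1b (chr15:103503034-103530052, plus strand) showed the widest separation of the Pde1 genes. Its level in WT libraries was 1639, 1420.0 and 1454 CPM in striatum, 152, 160.5 and 160.2 in frontal cortex and 126, 146 and 137 in hippocampus. Every striatal library lay far above every other one, with no overlap. The WT difference was 9.56-fold between striatum and frontal cortex (log2 3.26 ± 0.10, SE, adjusted p = 1.14e-08, edgeR) and 11.1-fold between striatum and hippocampus (log2 3.47 ± 0.10, adjusted p = 8.08e-09). In Pcm1-/- mice the same differences were 9.98-fold and 12.5-fold.

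Pde1c (chr6:56069804-56569103, minus strand), the isoform with high affinity for both nucleotides, was also highest in striatum, at a far lower level than Pde1b. WT libraries gave 59.3, 65.3 and 53.6 CPM in striatum, 6.58, 6.54 and 9.18 in frontal cortex and 11.7, 8.99 and 10.4 in hippocampus. Striatal libraries again stood apart, while the highest frontal cortex library exceeded the lowest hippocampal one. The WT difference from frontal cortex to striatum was log2 3.00 ± 0.16 (SE, adjusted p = 2.96e-07, edgeR) and 5.74-fold from hippocampus to striatum. In hippocampus Pde1c was 1.39-fold above frontal cortex in WT mice (adjusted p = 0.0409) and 1.19-fold in Pcm1-/- mice (adjusted p = 0.143, edgeR).

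Pde1a (chr2:79834453-80129458, minus strand), a calmodulin-dependent enzyme like the other two, ran in the opposite direction. WT libraries gave 306, 332 and 343 CPM in frontal cortex, 138, 263 and 167 in hippocampus and 45.0, 55.7 and 42.4 in striatum. The 3 regions did not overlap in either genotype, although the Pcm1-/- hippocampal replicate 2, at 327 CPM, came close to the Pcm1-/- frontal cortex libraries of 343, 339 and 334 CPM. Pde1a was 6.85-fold lower in striatum than in frontal cortex (log2 -2.78 ± 0.22, SE, adjusted p = 4.65e-06, edgeR) and 3.96-fold lower than in hippocampus in WT mice, and 6.76-fold and 4.77-fold lower in Pcm1-/- mice.

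Within the hippocampus Pde1a was the most variable of the 10 genes, with a coefficient of variation of 34.7% in WT and 32.1% in Pcm1-/- libraries. The highest library was replicate 2 in each genotype, at 263 and 327 CPM, and the remaining ones gave 138 to 167 and 182 to 211 CPM. These replicate 2 libraries were also those with Y-linked counts, and they had the lowest summed oligodendrocyte markers of their groups, 4688 CPM against 7711 and 9537 in WT and 3560 against 4948 and 5822 in Pcm1-/- hippocampus, and the lowest thalamic markers, 203 against 404 and 431 and 87.2 against 99.6 and 222 CPM. The part of sex or of dissection in the spread of Pde1a was not tested. In frontal cortex, where the same animals gave replicate 2, Pde1a was 332 CPM in WT and 339 in Pcm1-/- mice, between the other replicates. Without WT hippocampus replicate 2 the WT difference between hippocampus and frontal cortex was log2 -1.10 instead of -0.79 and passed the 2-fold limit, so that 1 member was called in place of 0.

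Pde2a, stimulated by cGMP through its regulatory domains, was counted under ENSMUSG00000030653 (chr7:101410886-101512819, plus strand), a model that GENCODE M21 names Gm45837. In that annotation 95.6% of its exonic bases lie in exons of Pde2a, 64.3% of whose exonic bases it covers. There 150 bases are shared with Arap1 on the same strand, so reads of these models may not be told apart. The exons of Ensembl release 73, with which the counts were made, were not compared. WT libraries gave 902, 832 and 707 CPM in striatum, 429, 407 and 447 in frontal cortex and 238, 335 and 329 in hippocampus. Striatal libraries were above all others, and the frontal cortex libraries were above the hippocampal ones. The difference between striatum and frontal cortex was 1.90-fold in WT (log2 0.93 ± 0.14, SE) and 2.25-fold in Pcm1-/- mice (log2 1.17 ± 0.07), on either side of the 2-fold limit, with edgeR adjusted p-values of 0.000377 and 2.88e-07. Without WT striatum replicate 3, the library with choroid plexus markers, the WT value was log2 1.02. Against hippocampus Pde2a was 2.72-fold higher in WT and 2.40-fold higher in Pcm1-/- striatum.

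Among the cAMP-specific genes, Pde7b (chr10:20398004-20725078, minus strand), an enzyme known to be insensitive to rolipram, had the steepest striatal difference. WT libraries gave 358, 358 and 339 CPM in striatum, 53.2, 52.6 and 44.8 in frontal cortex and 34.8, 28.4 and 28.4 in hippocampus. The 3 regions did not overlap. Pde7b was 7.02-fold higher in striatum than in frontal cortex (log2 2.81 ± 0.10, SE, adjusted p = 3.05e-08, edgeR) and 11.6-fold higher than in hippocampus in WT mice, and 7.40-fold and 15.7-fold higher in Pcm1-/- mice. Between hippocampus and frontal cortex it was lower by 1.65-fold in WT (log2 -0.72 ± 0.10) and by 2.12-fold in Pcm1-/- mice (log2 -1.08 ± 0.08), with edgeR adjusted p-values of 0.000403 and 3.29e-06.

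Pde8b (chr13:95024454-95250336, minus strand), a high-affinity cAMP enzyme, gave 181, 188 and 159 CPM in WT striatum, 108, 114 and 102 in frontal cortex and 84.9, 92.8 and 82.4 in hippocampus. Regions did not overlap. Striatum was 1.64-fold above frontal cortex (adjusted p = 7.77e-05, edgeR) and 2.04-fold above hippocampus in WT mice, where it was called. Without WT striatum replicate 2 the latter was log2 0.98 and fell short of 2-fold, as did the Pcm1-/- difference of 1.90-fold.

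The Pde4 genes, the rolipram-sensitive family, differed among themselves. Pde4a (chr9:21165714-21213248, plus strand) was highest in frontal cortex, with 171, 173 and 150.5 CPM in WT libraries, against 119, 124 and 103 in hippocampus and 81.4, 78.0 and 79.4 in striatum. The regions did not overlap, and striatum was 2.07-fold below frontal cortex in WT (log2 -1.05 ± 0.08, SE, adjusted p = 5.75e-06, edgeR) and 2.14-fold below in Pcm1-/- mice. Pde4b (chr4:102087543-102607259, plus strand) was highest in striatum, with 183, 180 and 171 CPM, against 118, 131 and 141 in frontal cortex and 89.6, 93.0 and 90.8 in hippocampus. It was 1.37-fold above frontal cortex in WT mice (adjusted p = 0.000852, edgeR), and 1.96-fold above hippocampus in WT and 2.21-fold in Pcm1-/- mice. Pde4d (chr13:108449948-109953461, plus strand) was highest in frontal cortex, with 58.5, 63.0 and 71.8 CPM, and did not separate striatum (47.4, 40.5 and 45.9 CPM) from hippocampus (36.8, 44.2 and 45.7 CPM). The striatum to hippocampus difference of Pde4d was 1.06-fold in WT mice, with a 95% interval of log2 -0.16 to 0.33 (adjusted p = 0.630, edgeR), and 1.25-fold in Pcm1-/- mice (adjusted p = 0.00165).

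Pde9a (chr17:31386210-31476310, plus strand), with the highest affinity for cGMP in the superfamily, was low in every region. WT libraries gave 15.8, 17.2 and 21.1 CPM in striatum, 11.9, 12.1 and 8.51 in frontal cortex and 11.1, 13.0 and 9.17 in hippocampus. Striatum lay above the other regions without overlap, and frontal cortex and hippocampus overlapped, at a WT difference of log2 0.03 with a 95% interval of -0.37 to 0.42. The striatal level was 1.67-fold that of frontal cortex in WT (adjusted p = 0.00694, edgeR) and 2.38-fold in Pcm1-/- mice, and 1.63-fold and 2.55-fold that of hippocampus.

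**Figure D3:**
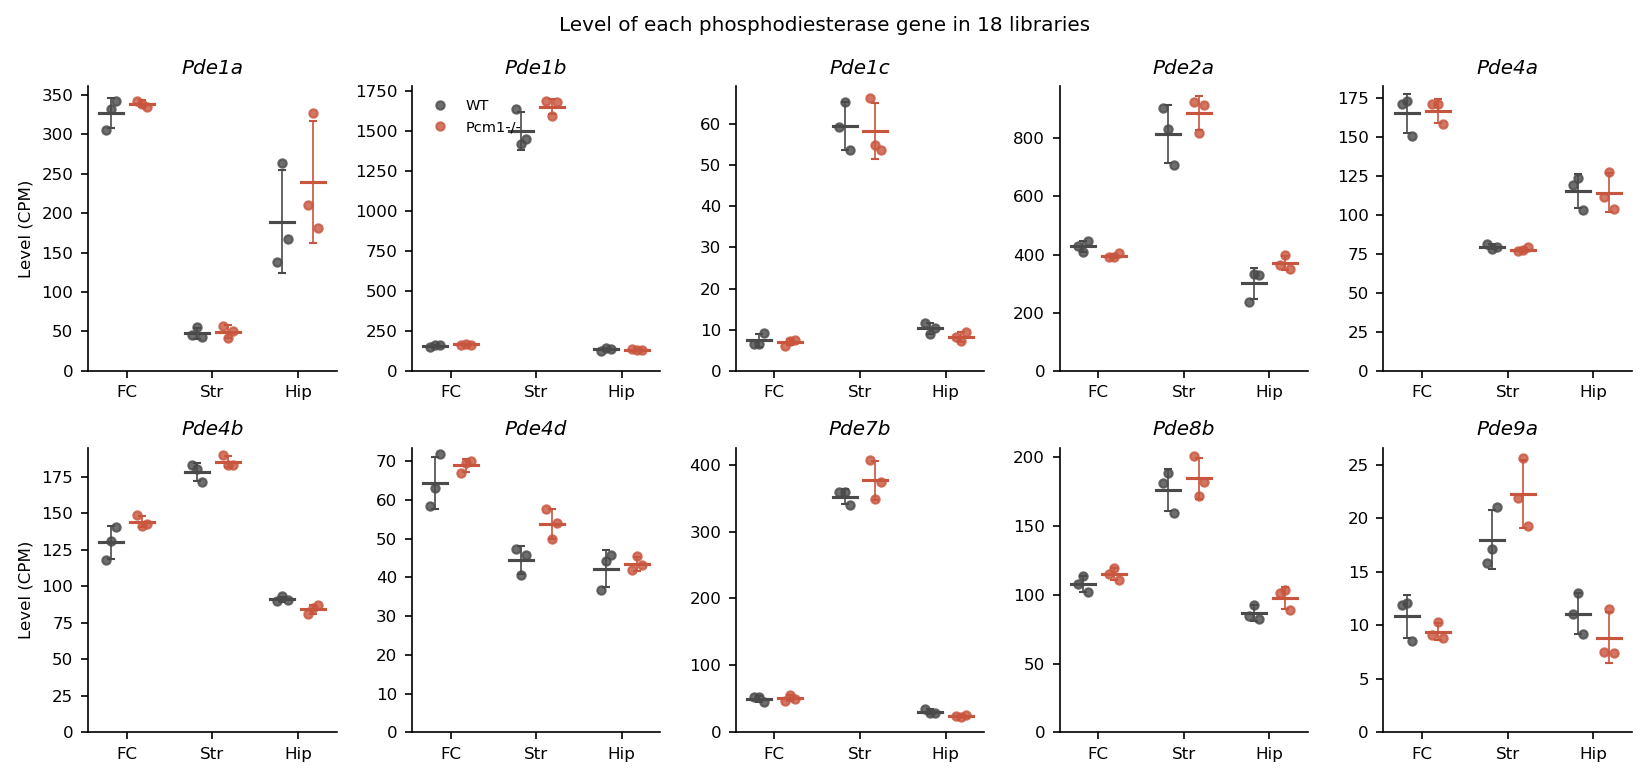
Level of each of the 10 genes in CPM by region (FC, frontal cortex; Str, striatum; Hip, hippocampus) in WT (grey) and Pcm1-/- (red) libraries; points are the 3 libraries of a group, bars the mean and whiskers 1 SD. Regions separate most genes by far more than genotypes do, and Pde1a in hippocampus has 1 high library in each genotype.

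The comparison of genotypes asks whether loss of Pcm1 altered these genes, and was made within each region on 3 against 3 libraries with edgeR's quasi-likelihood test. No member passed an adjusted p of 0.05 in frontal cortex, striatum or hippocampus, and by DESeq2 the count was also 0 in each. In frontal cortex 1.41% of all genes were called higher and 0.336% lower in Pcm1-/- mice, in striatum 0.0228% and 0.0057%, and in hippocampus 0.0114% and 0.0057%. DESeq2 called 3.93%, 2.79% and 1.21% of the genes it tested in these regions. At an unadjusted p under 0.05, 1 member was lower in frontal cortex (Pde2a) beside 7.47% of all genes, 1 was higher in striatum (Pde4d) beside 6.54%, and 1 was lower in hippocampus (Pde7b) beside 5.06%. No member passed that level in the other direction, which 7.84%, 6.98% and 4.84% of all genes did in frontal cortex (higher), striatum (lower) and hippocampus (higher).

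The groups did not overlap for 2 members that were higher in Pcm1-/- frontal cortex (Pde1b and Pde4b, beside 12% of all genes) and 1 that was lower (Pde2a, beside 9.28%). In striatum this held for 1 higher member (Pde4d, beside 9.6%) and no lower one, beside 9.39%. In hippocampus it held for 1 higher member (Pde2a, beside 10.6%) and 2 lower ones (Pde4b and Pde7b, beside 6.47%). The median log2 difference of the 10 genes between genotypes was 0.03 in frontal cortex, 0.08 in striatum and -0.04 in hippocampus, against -0.01, 0.00 and 0.00 over all genes.

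Pde2a was 429, 407 and 447 CPM in WT and 390.3, 392 and 404 in Pcm1-/- frontal cortex, all mutant libraries below all WT ones. The difference was -7.58%, or log2 -0.12 ± 0.05 (SE, unadjusted p = 0.0497, adjusted p = 0.325 by edgeR). In these frontal cortex libraries summed markers of excitatory neurons (2618 to 2702 CPM in WT, 3033 to 3201 in Pcm1-/- mice) and of striatal projection neurons (205 to 227, 260 to 291) were also higher in all mutant libraries. Those of oligodendrocytes (1817 to 2461, 1617 to 1718), microglia (386 to 505, 335 to 381) and endothelial cells (164 to 233, 149 to 156) were lower in all of them, and the part of cell composition was not tested. In hippocampus the order was turned round, with 238, 335 and 329 CPM in WT and 364, 398 and 350.1 in Pcm1-/- mice, a difference of log2 0.28 ± 0.13 (adjusted p = 0.535, edgeR). It was carried largely by WT replicate 1, without which it was log2 0.14. This library also had the highest choroid plexus and oligodendrocyte markers of the hippocampal libraries, at 6289 and 9537 CPM. Between genotypes, hippocampal excitatory neuron markers (1895 to 2443 CPM in WT, 2459 to 3043 in Pcm1-/- mice) and endothelial ones (138 to 200.3, 117 to 131) did not overlap, and the part of these markers in the difference was not tested. In striatum the groups overlapped, at 707 to 902 CPM in WT and 818 to 923 in Pcm1-/- mice.

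Pde4d was 47.4, 40.5 and 45.9 CPM in WT and 57.6, 49.8 and 54.1 CPM in Pcm1-/- striatum, without overlap. The difference was 20.7%, or log2 0.27 ± 0.08 (SE), with an unadjusted p of 0.00986 and an adjusted p of 0.228 by edgeR and of 0.118 by DESeq2. In the same libraries striatal projection neuron markers summed to 6983 to 8031 CPM in WT and 8316 to 8948 in Pcm1-/- mice, and oligodendrocyte markers to 8891 to 9120 and 5359 to 8808, both without overlap, and the part of cell composition was not tested. Pde4d overlapped between genotypes in frontal cortex (58.5 to 71.8 against 67.0 to 70.0 CPM) and hippocampus (36.8 to 45.7 against 42.0 to 45.5 CPM).

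Pde7b was 34.8, 28.4 and 28.4 CPM in WT and 24.4, 22.6 and 25.3 in Pcm1-/- hippocampus, again without overlap. The difference was -21.0%, or log2 -0.36 ± 0.11 (SE), with an unadjusted p of 0.0121 and an adjusted p of 0.418 by edgeR. Thalamic markers summed to 203 to 431 CPM in WT and 87.2 to 222 in Pcm1-/- hippocampus, which overlapped, and excitatory neuron and endothelial markers did not overlap, as given for Pde2a, and their part in the difference was not tested. In frontal cortex and striatum Pde7b overlapped, with differences of log2 0.01 ± 0.09 and 0.10 ± 0.07.

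Pde4b was 118, 131 and 141 CPM in WT and 149, 141 and 142 in Pcm1-/- frontal cortex, the lowest mutant library being 0.693 CPM above the highest WT one. The difference was log2 0.14 ± 0.07 (SE, adjusted p = 0.376, edgeR), and 0.08 with lane in the model or without WT replicate 1. These are not separate checks, since WT replicate 1 was the only frontal cortex library in lane 3. In hippocampus Pde4b was 89.6, 93.0 and 90.8 CPM in WT and 80.9, 84.9 and 87.0 in Pcm1-/- mice, a difference of log2 -0.13 ± 0.07 (adjusted p = 0.561, edgeR). Pde1b in frontal cortex was 152, 160.5 and 160.2 CPM in WT and 164, 170.1 and 165 in Pcm1-/- mice, a difference of log2 0.07 ± 0.05. The markers given for Pde2a separated the genotypes in the same frontal cortex and hippocampal libraries, and their part in the values of Pde4b and Pde1b was not tested.

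The remaining members overlapped between genotypes in every region. For Pde4a the 95% intervals of the difference were log2 -0.15 to 0.16 in frontal cortex, -0.15 to 0.08 in striatum and -0.26 to 0.20 in hippocampus. Pde8b had intervals of -0.05 to 0.22, -0.13 to 0.27 and -0.04 to 0.35 in the same order. The intervals were wider for the genes with few counts or a large spread, among them Pde9a (-0.53 to 0.11, -0.01 to 0.63 and -0.82 to 0.13), Pde1c in hippocampus (-0.71 to 0.03) and Pde1a in hippocampus (-0.32 to 0.96). Pde10a showed 2249 ± 135 CPM (SD, n = 3) in WT and 2181 ± 103 in Pcm1-/- striatum, a difference of log2 -0.04 ± 0.08.

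**Figure D4:**
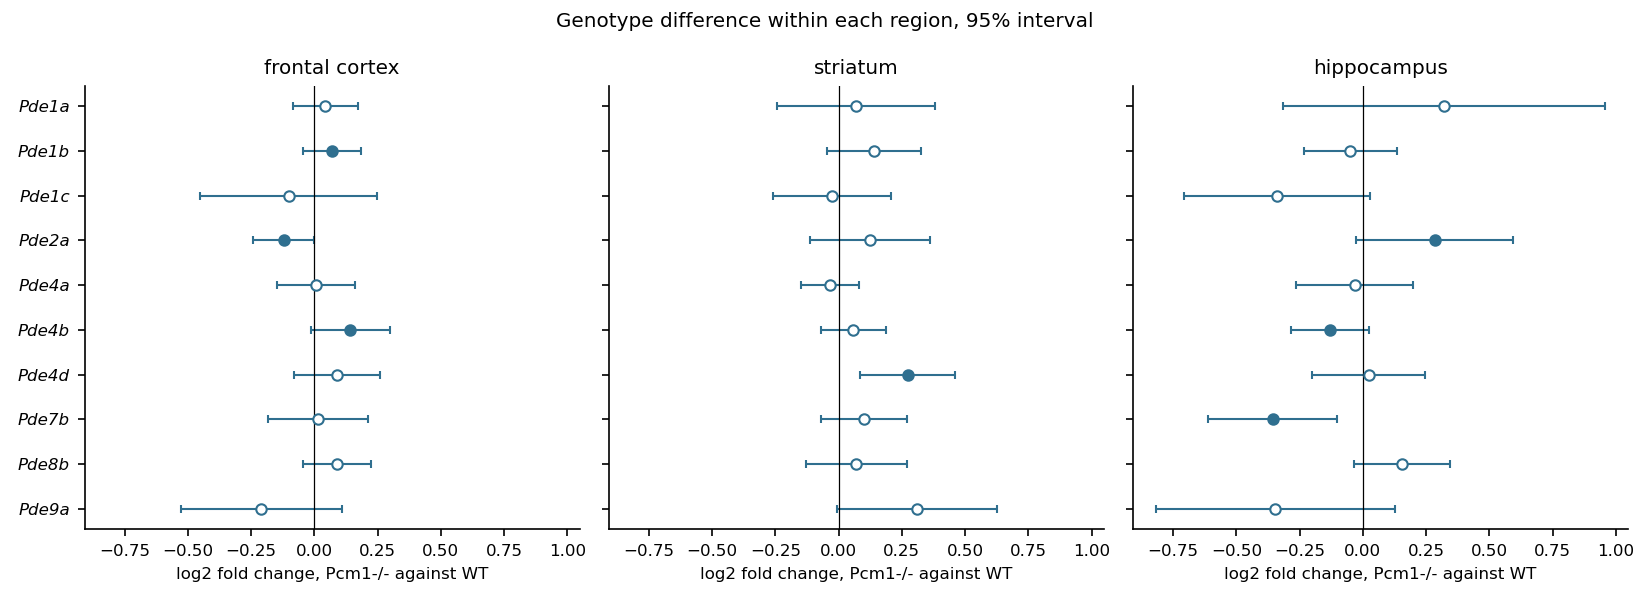
Log2 fold change of Pcm1-/- against WT for the 10 genes in each region, with 95% confidence intervals from the fit of 3 against 3 libraries; filled points are genes whose groups did not overlap. The intervals of Pde2a in frontal cortex, Pde4d in striatum and Pde7b in hippocampus leave out 0, and none of the 10 genes passed the adjusted threshold.

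An interaction term in 1 edgeR fit of all 18 libraries tested whether the effect of genotype depended on region. No member passed an adjusted p of 0.05 by edgeR, beside 0.0114% of all genes. Pde4b and Pde7b passed an unadjusted p of 0.05 in that edgeR fit of 18 libraries, at 0.0222 and 0.0105, beside 5.54% of all genes. With the animal as a block 3 members did so, beside 1384 of all 17545 genes, and leaving out 1 library gave 1 to 4. In these fits too, 0 members passed the adjusted threshold. Pde7b had an effect in hippocampus lower than that in striatum by log2 0.43 ± 0.13 (SE), taken as striatum minus hippocampus, with an adjusted p of 0.588 by edgeR. For Pde4b the effect in hippocampus minus that in frontal cortex was log2 -0.26 ± 0.09 (adjusted p = 0.633, edgeR), and for Pde2a it was 0.42 ± 0.16 (adjusted p = 0.770, edgeR).

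The other genes of cyclic nucleotide signalling were taken as 5 lists of 79 genes in all, of which 75 were tested. In striatum against frontal cortex 9 were called higher (12% of the 75, beside 8.33% of all genes) and 13 lower (17.3%, beside 8.29%) in WT mice. Of 19 anchors and regulators of phosphodiesterases and protein kinase A, 3 were higher and 1 lower. They were Ppp1r1b, the protein phosphatase inhibitor DARPP-32, at log2 4.64 ± 0.14 (SE), the kinase anchors Akap9 and Akap5 at 1.95 ± 0.20 and 1.5 ± 0.11, and Akap7 at -1.16 ± 0.10. Of 10 adenylyl cyclases, which make cAMP, 1 was higher, Adcy5 at 3.20 ± 0.12, and 5 were lower, from Adcy10 at -2.82 ± 0.43, a gene at 0.534 CPM in frontal cortex, and the calmodulin-activated Adcy1 at -1.98 ± 0.12 to Adcy8 at -1.04 ± 0.21. Of 23 effectors 2 were higher, Popdc3 at 2.29 ± 0.30 and Prkar2b, a regulatory subunit of protein kinase A, at 1.13 ± 0.09, and 3 were lower, among them the kinase subunit Prkar1b at -1.61 ± 0.10. Of 10 guanylyl cyclases Gucy2g was lower at -3.99 ± 0.19, and of 13 other phosphodiesterases 3 were higher, led by Pde10a at 4.96 ± 0.13 and Pde3a at 3.01 ± 0.23, and 3 lower, led by Pde11a at -1.61 ± 0.36 and Pde5a at -1.42 ± 0.23. Pde3a had only 0.498 CPM per kb in WT striatum and 0.0615 in WT frontal cortex.

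In striatum against hippocampus 8 of the 75 genes were higher (10.7%, beside 5.35% of all genes) and 12 lower (16.0%, beside 6.69%) in WT mice. Ppp1r1b at log2 4.91 ± 0.14 (SE), Akap5 at 2.19 ± 0.11 and Akap9 at 2.02 ± 0.20 were again higher, and Disc1, the scaffold that binds Pde4 enzymes, was lower at -1.32 ± 0.24. Adcy5 was higher at 3.69 ± 0.12, and Adcy1 at -2.10 ± 0.12, Adcy8 at -1.31 ± 0.21 and Adcy2 at -1.13 ± 0.08 were lower. Prkar2b was higher at 2.24 ± 0.09, while Cngb1 at -2.96 ± 0.40, the cGMP-dependent kinase Prkg1 at -1.77 ± 0.19 and Popdc3 at -1.26 ± 0.24 were lower. Gucy1a1, a subunit of the nitric oxide receptor, was higher at 2.26 ± 0.19, and Gucy2g at -2.39 ± 0.19 and Npr1 at -1.26 ± 0.39 were lower. Pde10a at 4.68 ± 0.13 and Pde3a at 1.37 ± 0.21 were higher, and Pde11a at -2.70 ± 0.36 and Pde5a at -1.05 ± 0.23 were lower.

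In hippocampus against frontal cortex, where no member was called in WT mice, 8 of the 75 genes were higher (10.7%, beside 6.62% of all genes) and 6 lower (8%, beside 4.59%). Popdc3 at log2 3.55 ± 0.29 (SE), Cngb1 at 2.60 ± 0.38, Pde6g at 2.26 ± 0.71, Npr1 at 1.74 ± 0.40 and Pde3a at 1.65 ± 0.23 led the higher ones, all 5 at mean levels under 10 CPM in both regions, and Pde8a was higher at 1.01 ± 0.18. Pde6g had only 0.0430 CPM per kb in WT frontal cortex and 0.207 in WT hippocampus, and Pde3a 0.0615 and 0.193. Gucy1a1 at -1.61 ± 0.18, Gucy2g at -1.59 ± 0.16, Pde4c at -1.51 ± 0.38, Adcy10 at -1.45 ± 0.37, Prkar1b at -1.26 ± 0.10 and Prkar2b at -1.11 ± 0.09 were the 6 lower ones.

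Between genotypes Akap13, an anchor of protein kinase A, passed an adjusted p of 0.05 in frontal cortex, where the median log2 difference of each list lay between -0.11 and 0.04. It was 38.4, 34.0 and 39.4 CPM in WT and 27.4, 25.8 and 26.2 in Pcm1-/- mice (log2 -0.50 ± 0.07, SE, adjusted p = 0.0177, edgeR). Its groups did not overlap. In these frontal cortex libraries the markers given for Pde2a also separated the genotypes, and their part in the Akap13 difference was not tested. The Akap13 difference was log2 -0.28 ± 0.08 in striatum (adjusted p = 0.209, edgeR) and -0.17 ± 0.12 in hippocampus (adjusted p = 0.649, edgeR). Of the 75 genes, 1 was called higher and 1 lower in frontal cortex by edgeR, beside 1.41% and 0.336% of all genes, and 3 were called by DESeq2. At an unadjusted p under 0.05, 8 were higher and 6 lower there (10.7% and 8%, beside 7.84% and 7.47% of all genes). In striatum none passed by edgeR or DESeq2, and 5 higher and 5 lower genes (6.67% each) reached an unadjusted p under 0.05, beside 6.54% and 6.98% of all genes. In hippocampus none passed by edgeR and 2 by DESeq2, and 4 genes were higher and 5 lower at that level (5.33% and 6.67%, beside 4.84% and 5.06% of all genes).

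Among the 12869 genes whose average log2 CPM was 1 or more, the genes whose log2 CPM over the 18 libraries was most like that of each member were listed by Pearson's r, as a description in which the 3 regions set most of the pattern. Pde1b was most like Rarb, a retinoic acid receptor of striatal neurons (r = 0.999), and Ppp1r1b (0.998). Pde7b was most like Tbc1d8 (0.995) and Gnal, the G protein that couples D1 receptors to Adcy5 (0.995), and Pde1c was most like Strn (0.993) and Cacng4 (0.992). Pde8b was most like the transcription factor Foxp1 (0.987) and Sh2d5 (0.987), and Pde2a was most like Gnb5 (0.987) and Akap5 (0.984). Pde1a was most like Napb (0.996) and 1700025G04Rik (0.992), Pde4a most like Pip5k1c (0.996) and Klc2 (0.995), and Pde4b was alike with Cdc42ep3 (0.990). Likeness was lower for Pde9a, with Cbx7 (0.971) and Snw1 (0.944), and for Pde4d, with Adra1a (0.963) and Pcsk2 (0.957). Among the members themselves Pde1b and Pde7b were alike at r = 0.982, while Pde1a and Pde1b ran against each other at r = -0.927.

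Since Pde1b and Pde7b moved together across the libraries, the 250 bases before the RefSeq start of each (GRCm38.p6) are shown, taken from the first Pde1b promoter and the only Pde7b promoter in the table; the Pde1b window had 67% G and C over its 300 bases and the Pde7b window 55.7%, beside a median of 52.7% over all promoters.
Pde1b, chr15:103502784-103503033, plus strand: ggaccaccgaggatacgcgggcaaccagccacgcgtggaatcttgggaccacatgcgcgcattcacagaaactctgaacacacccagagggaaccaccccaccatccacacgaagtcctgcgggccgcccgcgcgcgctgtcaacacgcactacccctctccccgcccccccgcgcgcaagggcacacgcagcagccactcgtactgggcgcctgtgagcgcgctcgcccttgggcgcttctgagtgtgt
Pde7b, chr10:20548329-20548578, minus strand: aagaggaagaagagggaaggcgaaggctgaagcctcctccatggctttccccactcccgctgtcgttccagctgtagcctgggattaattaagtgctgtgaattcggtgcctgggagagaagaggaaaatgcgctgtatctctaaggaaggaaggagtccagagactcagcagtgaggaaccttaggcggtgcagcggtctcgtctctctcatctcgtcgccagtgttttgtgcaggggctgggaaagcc

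The cAMP response element, a binding site of CREB, was searched for in the 300-base promoter windows (250 bases before the start and 50 after it) of the 9 members found in the RefSeq table, Pde9a having no match. Its full form, TGACGTCA, reads the same on both strands and was in 1.79% of all 32851 promoters and in none of the 29 promoters of the members. Its partial form TGACG, read on either strand and contained in the full form, was in 20.8% of all promoters and in 5 of the 29 (17.2%), 1 promoter each of Pde1a, Pde2a, Pde4a, Pde4b and Pde8b. Those 5 sites are shown with their flanks, the match in capitals, as CGTCA where it lies on the other strand. They begin 166, 50 and 34 bases before the start in Pde1a, Pde4a and Pde4b and 14 and 38 bases after it in Pde2a and Pde8b. None of the promoters of Pde1b, Pde1c, Pde4d and Pde7b held it.
Pde1a, chr2:80039053-80039079, minus strand: taacttcagccCGTCAttcctcagtaa
Pde2a, chr7:101450523-101450549, plus strand: gggcgcaggagCGTCAcggctgctgca
Pde4a, chr9:21184040-21184066, plus strand: gcacagctcgaCGTCAggctggggagg
Pde4b, chr4:102421510-102421536, plus strand: atttggctgcaCGTCAattttctcatc
Pde8b, chr13:95223001-95223023, minus strand: gaaagttggggTGACGcgcgctg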

How the data were processed

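RNA was measured in 18 libraries, 3 per genotype in each of 3 regions. The authors made stranded mRNA libraries, trimmed reads with Trim Galore and Cutadapt and kept those of at least 20 bases, aligned them with STAR to GRCm38 with Ensembl release 73, and deposited HTSeq counts per gene from reads placed at a single location. Tool versions and the strand setting of the counting are not given in the sources used here. Unassigned reads were left out, and 86.8% to 89.2% of reads were assigned to genes. Genes with at least 10 counts in any library were kept and scaled by TMM, and edgeR 4.0.16 (R 4.3.3) quasi-likelihood tests with Benjamini-Hochberg adjustment over all 17545 genes gave the genotype effect (6 libraries of a region), region differences (9 libraries of a genotype) and interaction (18 libraries). SD is between libraries and SE is from the fit. Replicates of a group were separate animals. Region fits ignored that animals gave all 3 regions, and taking the animal as a block changed no call of a member.

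Gene positions and exon lengths came from GENCODE M21, and Pde2a was matched by exon overlap because its current identifier was not among the counted ones. Alternatives were DESeq2 1.42.0, other size factors, filters and thresholds, lane, replicate number and leaving out each library. Sex, read from Y-linked counts, as a covariate and another exon length for Pde2a were added after seeing the data. The fits were tested on simulated data. Named were all members, Pcm1, Pde10a, list genes past the genotype threshold, the 2 highest and 2 lowest called genes per list and WT region comparison, and the 2 genes most like each member by log2 CPM (prior count 2). Members, lists and markers were chosen with earlier results of these data known, and Ppp1r1b is on both the striatal marker list and the list of anchors and regulators. With 3 against 3 libraries an exact permutation test of a single gene cannot give a p below 0.1, so none was used. Some genes that this rule names are not reported here.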

Additional observations from a re-analysis of the deposited data

Results flagged for a closer look

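For Pde2a and Pde4b the fitted genotype values had opposite signs in frontal cortex and hippocampus, with groups that did not overlap in either region, but none of these 4 values passed the adjusted threshold. Pde2a was at log2 -0.12 in frontal cortex and 0.28 in hippocampus (Pcm1-/- against WT, adjusted p = 0.325 and 0.535, edgeR), and the hippocampal value was 0.14 without WT replicate 1. Its genotype by region interaction had an unadjusted p of 0.0563 and an adjusted p of 0.926 by edgeR's quasi-likelihood test. Pde4b was at log2 0.14 in frontal cortex and -0.13 in hippocampus (adjusted p = 0.376 and 0.561, edgeR), and the frontal cortex value was 0.08 with lane in the model or without WT replicate 1. That library was the only one of its region in lane 3, so these are not separate checks. The interaction of Pde4b had an unadjusted p of 0.0222 and an adjusted p of 0.759 by edgeR. Neither interaction passed the adjusted threshold, and both genes were picked out for this pattern after their values were seen.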

How the results depend on the processing

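Over 90 values of single genes and 1460 alternatives, 1430 kept direction and call. With no minimum fold, 10 members passed between striatum and frontal cortex in WT (41.5% of all genes), 8 between hippocampus and frontal cortex in WT (29.8%) and 6 in Pcm1-/- mice (41.5%). Leaving out 1 library gave 0 to 1 members between hippocampus and frontal cortex in WT, the 1 being Pde1a without hippocampal replicate 2, and 5 to 6 between striatum and frontal cortex or hippocampus. With lane in 1 fit of all 18 libraries Pde4a fell short of 2-fold between striatum and frontal cortex (log2 -0.93, WT). With lane in the fit of the region, genotype effects changed sign for Pde1a in frontal cortex (-0.00395) and Pde1b in hippocampus (0.00661). With lane in 1 fit of all 18 libraries they did so in striatum for Pde1a (-0.119), Pde1c (0.268) and Pde8b (-0.0342). That fit takes lane effects from the other regions, since lane and genotype cannot be told apart within the striatum. Leaving out 1 library changed the sign of genotype effects within ranges of -0.00276 to 0.0798 (Pde1a, frontal cortex), -0.0354 to 0.196 (Pde1a, striatum), -0.184 to 0.0797 (Pde1c, frontal cortex), -0.125 to 0.0487 (Pde1c, striatum), -0.0541 to 0.0502 (Pde4a, frontal cortex), -0.115 to 0.0194 (Pde4a, hippocampus), -0.0656 to 0.0777 (Pde4d, hippocampus), -0.0600 to 0.0739 (Pde7b, frontal cortex) and -0.000743 to 0.122 (Pde8b, striatum). It did the same for Pde4d between striatum and hippocampus in WT (-0.0118 to 0.157) and Pde9a between hippocampus and frontal cortex in Pcm1-/- (-0.338 to 0.0103) and WT (-0.116 to 0.160) mice. The cause was not tested. With the replicate block 0 members were called between genotypes in each region, and no other call of a member changed, while 665, 3 and 9 of all genes were called in frontal cortex, striatum and hippocampus, against 306, 5 and 3. Same-numbered libraries correlated at 0.0428 to 0.260 in frontal cortex, where each library correlated best with its own number, -0.269 to 0.178 in striatum and 0.0955 to 0.507 in hippocampus, so the numbers were not taken to pair them. DESeq2 called 687, 488 and 212 of all genes. Lane within the region left 29 in frontal cortex and 2 in hippocampus, no filter gave 544, 65 and 4, 1 fit of all 18 libraries 176, 54 and 205, that fit with lane 95, 8 and 160, and sex as a covariate, chosen after seeing the data, 287, 505 and 6, with 0 members in each region.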
